A study of Mus musculus with 18 samples.

Results

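The genes described here are the sarcomeric myosin genes of the ventricle and 1 noncoding gene that lies within one of them: the heavy chains Myh6, Myh7 and Myh7b, the light chains Myl2 and Myl3, the myosin-binding protein gene Mybpc3, and the intronic microRNA gene Mir208a. They were chosen by name as myosin genes, by a rule that used no measured value, and are 7 of the 23457 genes in the deposited count table. All 7 passed the filter on low counts and were among the 12281 genes tested. The counts came from the hearts of 18 male C57BL/6 mice, each heart being a separate animal. A recombinant adeno-associated virus of serotype 6 was injected into the tail vein at 8 weeks of age, and the hearts were taken at 17 weeks, 9 weeks after injection. Of the 18 mice, 6 received rAAV6-blank, whose virus has a promoter but encodes no protein, 6 received rAAV6-PLCβ1a and 6 received rAAV6-PLCβ1b. PLCβ1a and PLCβ1b are splice variants of phospholipase Cβ1, and the vectors carried each with a FLAG tag. All 18 animals, controls included, carried a virus, and no uninjected heart is compared here. The sample labels name both ventricles, whereas the methods of the study name the left ventricle. The study was designed to ask which transcripts change when PLCβ1b lowers contractility without hypertrophy, with PLCβ1a as the control isoform.

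Myosin is the motor of the thick filament. Each molecule holds a pair of heavy chains, and each heavy chain carries a regulatory and an essential light chain on its lever arm. In the ventricle of the adult mouse the heavy chain is almost entirely the fast α chain, encoded by Myh6. The slow β chain, encoded by Myh7, is the chain of the fetal ventricle and of slow skeletal muscle fibres, and in rodents its return is a classical marker of a heart under load or in failure. Myh7b encodes a more distant slow-tonic heavy chain. Myl2 encodes the ventricular regulatory light chain, Myl3 the ventricular essential light chain, and Mybpc3 cardiac myosin-binding protein C, which sits on the thick filament and tunes the cycling of the heads. The introns of the 3 heavy chain genes hold a family of related microRNAs, of which miR-208a, the product of Mir208a, is known to be needed for Myh7 to rise in the stressed mouse heart.

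In the deposited annotation (mm10), Myh6 lies at chr14:54941921-54966607 and Myh7 at chr14:54970688-54994549, both on the minus strand and 4080 bases apart. Mir208a, at chr14:54949060-54949142, lies in intron 29 of Myh6, which is 542 bases long. Mir208b lies in intron 31 of Myh7 and Mir499 in intron 19 of Myh7b, which is at chr2:155611212-155634307 on the plus strand. Myl2 is at chr5:122100980-122106854 (plus), Myl3 at chr9:110763681-110769794 (plus) and Mybpc3 at chr2:91118144-91136516 (plus). The mature microRNAs are shown because they tie the 3 heavy chain genes together. Their sequences are from RefSeq (GRCm38.p6), written 5′ to 3′, with the seed, bases 2 to 8, in capitals.
miR-208a-3p, intron of Myh6: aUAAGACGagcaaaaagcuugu
miR-208b-3p, intron of Myh7: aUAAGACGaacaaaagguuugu
miR-499-5p, intron of Myh7b: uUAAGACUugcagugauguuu
The first pair share the seed UAAGACG, which no other of the 1738 mature sequences in the table has, and differ at 3 positions. miR-499-5p shares bases 2 to 7 with both.

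Myh6 and Myh7 are close copies of each other, which matters for any count of short reads. Over the 5805 coding bases that could be aligned, 5320 were identical (91.6%). The reads of this study were 76 bases long, and 928 of the 6038 windows of that length in the Myh6 transcript (15.4%) occur letter for letter in the Myh7 transcript. These windows form 11 stretches, the longest of 245 bases. In Myh7 they are 15.3% of the windows, and 19.8% of its windows occur in some other gene. No window of Myh7b, Myl2, Myl3 or Mybpc3 was found in another gene. The longest shared stretch and the coding stretch of 120 bases in which the genes differ most are shown because they mark the ends of this range. Both were read from GENCODE transcripts (GRCm38, minus strand, each across 1 exon junction). The first spans chr14:54948327-54948725 in exons 30 and 31 of Myh6 and chr14:54974947-54975347 in exons 32 and 33 of Myh7. The other spans chr14:54952249-54952605 in exons 24 and 25 of Myh6 and chr14:54980324-54982197 in exons 26 and 27 of Myh7, where the 39 differing bases are in capitals.
Myh6 and Myh7, identical: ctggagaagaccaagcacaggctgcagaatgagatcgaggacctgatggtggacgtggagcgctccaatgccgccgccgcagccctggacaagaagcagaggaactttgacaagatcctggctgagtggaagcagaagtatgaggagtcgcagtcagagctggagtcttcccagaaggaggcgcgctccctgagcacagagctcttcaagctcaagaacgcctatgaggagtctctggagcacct
Myh6, most different: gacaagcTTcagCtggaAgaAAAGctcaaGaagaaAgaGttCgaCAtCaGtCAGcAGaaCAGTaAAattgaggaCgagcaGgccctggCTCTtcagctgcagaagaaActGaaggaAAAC
Myh7, most different: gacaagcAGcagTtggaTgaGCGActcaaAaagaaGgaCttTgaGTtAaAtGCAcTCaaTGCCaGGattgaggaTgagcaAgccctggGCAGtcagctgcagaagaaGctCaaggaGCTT

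**Figure D1:**
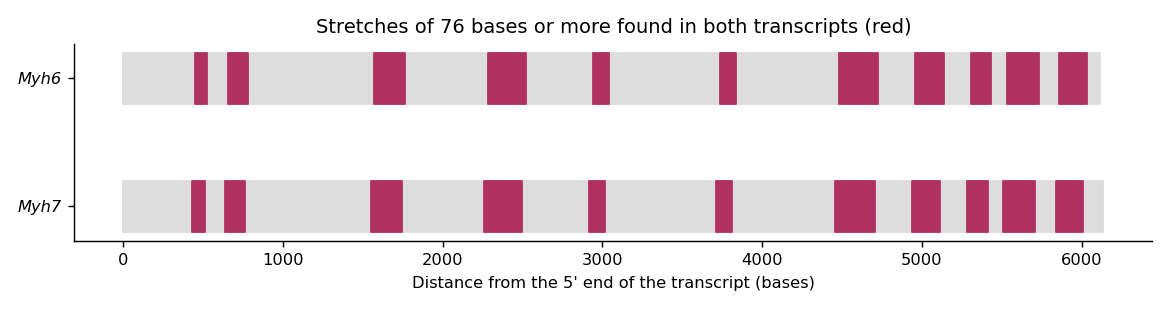
The Myh6 and Myh7 transcripts drawn to scale from their 5′ ends, in bases, with the 11 stretches of at least 76 bases that are identical in both genes in red. The stretches are 77 to 245 bases long and are spread from base 450 to base 6032 of the Myh6 transcript.

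Each heart had 3908354 to 7591558 counts on nuclear genes (median 5802756), of which the 7 genes took 4.15 to 4.49%. Myh6 alone took 2.57 to 2.90%. Values below, unless another unit is named, are CPM, the counts of a gene per 1000000 counts of its library after TMM scaling, mitochondrial genes included. Among the marker lists, the 6 cardiomyocyte genes summed to 14040 to 15360 CPM and the 6 atrial genes to 29.8 to 67.2 CPM. The 7 genes of fast skeletal muscle summed to 0.40 to 1.01 CPM in 17 hearts and to 17.96 CPM in PLCβ1a heart 21, where Myh4, a fast skeletal heavy chain, had 97 counts against 0 to 2 elsewhere. In bulk tissue, fewer cells of a type and less RNA per cell cannot be told apart.

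Myh6, the α heavy chain, hardly varied. Blank hearts held 8182 to 9016 CPM with a median of 8347, PLCβ1a hearts 7949 to 8929 with a median of 8505, and PLCβ1b hearts 7921 to 8848 with a median of 8158. The groups overlapped, although 3 PLCβ1b hearts lay below every blank heart. The fitted log2 fold change was -0.036 ± 0.036 (SE) in PLCβ1b and 0.011 ± 0.036 in PLCβ1a hearts against blank. As a fold, the 95% interval ran from 0.928 to 1.03 for PLCβ1b and from 0.958 to 1.06 for PLCβ1a. Both intervals are short and include 1.

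Myh7, the β heavy chain, was the most variable of the 7 genes in CPM. Blank hearts had 26.1 to 49.6 CPM (median 32.03), PLCβ1a hearts 22.2 to 68.7 (median 41.9) and PLCβ1b hearts 22.6 to 81.1 (median 35.2). These values rest on 452 to 1581 counts per heart. The highest heart was PLCβ1b heart 6 at 81.1 CPM, followed by PLCβ1a heart 21 at 68.7, PLCβ1b heart 17 at 63.2 and PLCβ1a heart 14 at 58.8. Each PLC group thus had 2 hearts above every blank heart and also 1 below every blank heart. Its biological coefficient of variation was 0.307, at the 99.6th percentile of all genes tested, where the median was 0.0662. The fitted log2 fold change against blank was 0.33 ± 0.34 (SE) for PLCβ1b and 0.36 ± 0.34 for PLCβ1a, with 95% intervals of 0.759 to 2.08 and 0.773 to 2.12 as folds. A doubling of Myh7 thus lies inside both intervals, and so does a decrease. Single hearts carried much of each value. Without PLCβ1b heart 6 the PLCβ1b value fell to a log2 fold change of 0.057 and without PLCβ1b heart 17 to 0.20, and without PLCβ1a heart 21 the PLCβ1a value fell to 0.19. Further skeletal muscle genes were looked up after the values of heart 21 were seen. Mybpc1, the slow skeletal form of the binding protein, had 27 counts there against 0 to 2 in the other hearts, and Atp2a1, the calcium pump of fast fibres, had 58 against 0 to 8. Tnni1 and Tnnt1, troponin genes of slow fibres, had 1 and 40 counts, within the 0 to 4 and 33 to 72 of the other hearts. Mybpc2, the fast skeletal form of the binding protein, and the light chain gene Myl1 had 166 and 117 counts there. Both also lay within the range of the other hearts, 98 to 211 and 65 to 163. The part of skeletal muscle RNA in the Myh7 of heart 21 was not tested.

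Myh7b, the slow-tonic heavy chain, had lower means in both PLC groups, did not pass the test, and varied with single hearts. Blank hearts had 36.03 to 67.7 CPM (median 45.3), PLCβ1a hearts 30.6 to 46.7 (median 41.96) and PLCβ1b hearts 31.6 to 47.3 (median 45.6). The spread of the blank group came from hearts above the range of the others, and 1 heart in each PLC group lay below all blank hearts. The log2 fold change was -0.16 ± 0.16 (SE) in PLCβ1b and -0.24 ± 0.16 in PLCβ1a hearts. Without blank heart 30 these became -0.037 and -0.12, and the PLCβ1b value was -0.095 without blank heart 26 and -0.083 without PLCβ1b heart 8. The unadjusted p of 0.152 for PLCβ1a was the lowest among the 21 values of the 7 genes over 3 contrasts, with an FDR of 0.720 in edgeR.

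The light chains varied little, with coefficients of variation over 18 hearts of 4.94% for Myl2 and 3.85% for Myl3, beside 4.04% for Myh6. Myl2, the regulatory chain, had a median of 2341 CPM in the blank group (2216 to 2413), 2381 in the PLCβ1a group (2110 to 2449) and 2267 in the PLCβ1b group (2187 to 2540). Myl3, the essential chain, had medians of 1090 (1025 to 1146), 1061 (998.5 to 1142) and 1104 CPM (1053 to 1132) in the same order. All groups overlapped. Fitted log2 fold changes against blank were 0.0063 (PLCβ1b) and 0.0053 (PLCβ1a) for Myl2 and 0.0088 and -0.038 for Myl3, with SE of 0.040 and 0.036. Their 95% intervals, as folds, lay between 0.926 and 1.06.

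Mybpc3, the binding protein of the thick filament, had a median of 1280 CPM in the blank group (1085 to 1349), 1318 in the PLCβ1a group (1150 to 1332) and 1327 in the PLCβ1b group (1157 to 1459). In PLCβ1b, 2 hearts lay above every blank heart. The log2 fold change was 0.067 ± 0.056 (SE) for PLCβ1b and 0.022 ± 0.056 for PLCβ1a.

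Mir208a had few counts, 7 to 28 per heart and 297 over all 18. A read of 76 bases is longer than the mature microRNA, so these counts are of fragments that cover its place in the Myh6 intron and not of miR-208a itself. Its median CPM was 0.828 in the blank group (0.535 to 1.12), 0.843 in the PLCβ1a group (0.715 to 1.28) and 0.821 in the PLCβ1b group (0.461 to 1.40). There were 0.978 ± 0.266 (SD, n = 6) Mir208a counts for each 10000 Myh6 counts with the blank vector, 1.10 ± 0.293 with PLCβ1a and 1.051 ± 0.434 with PLCβ1b. The log2 fold changes of 0.023 ± 0.25 (SE) and 0.099 ± 0.24 have intervals that reach folds of 0.718 to 1.44 for PLCβ1b and 0.760 to 1.51 for PLCβ1a. In FPKM Mir208a was listed at 0 in 15 of 18 hearts, although every heart had counts, and at 325 to 549.8 in the other 3, so its FPKM were not used. Mir208b had 1 count in all and Mir499 had 16, too few for a comparison.

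**Figure D2:**
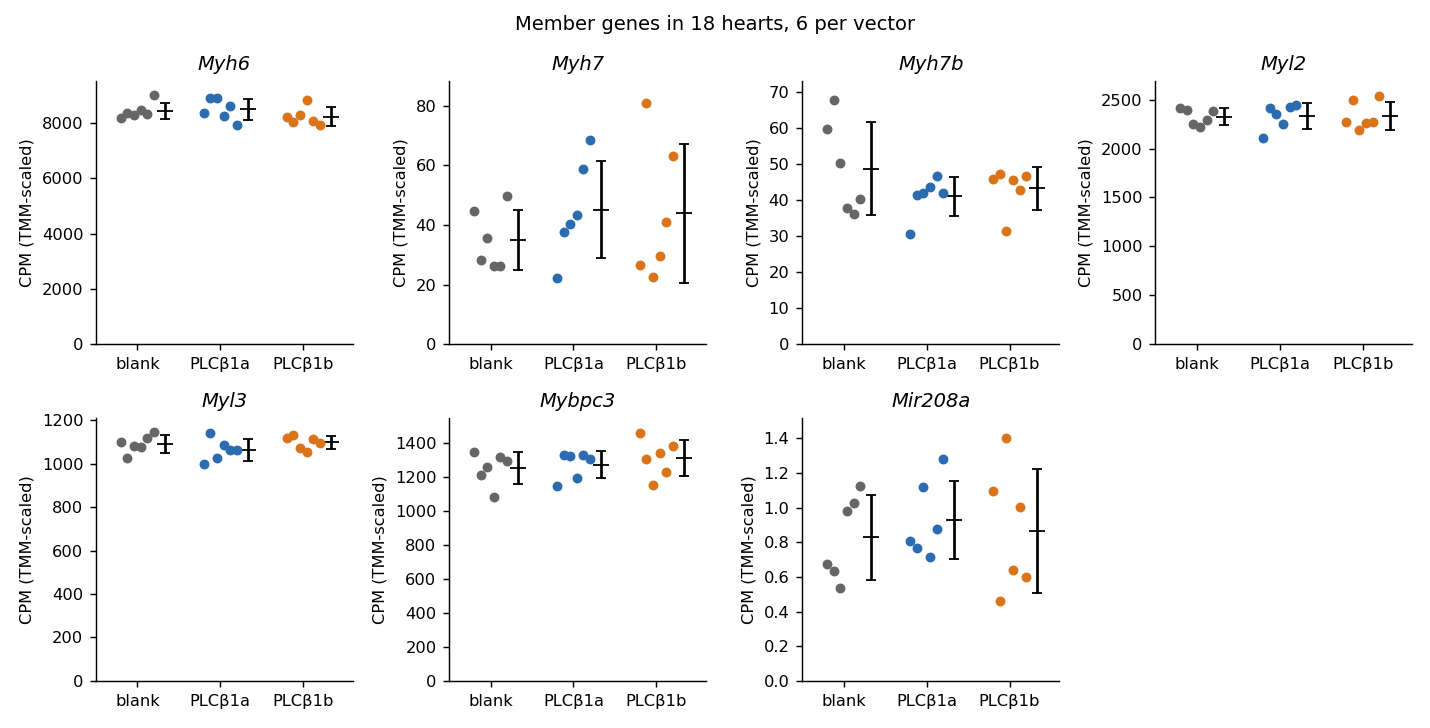
CPM after TMM scaling for each of the 7 genes, with 1 point per heart, 6 hearts per vector, and the mean ± SD beside each group. Myh6, Myl2 and Myl3 keep a narrow band in all 3 groups, whereas Myh7 ranges from 22.2 to 81.1 CPM and the groups overlap in every panel.

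In PLCβ1b against blank hearts, edgeR's quasi-likelihood test called 0 of the 7 genes at an FDR below 0.1, where it called 0.0977% of all genes tested. At an unadjusted p below 0.05, 0 of the 7 passed, beside 7.41% of all genes, and DESeq2 called 0. In PLCβ1a against blank hearts, 0 of the 7 were called, beside 0.138% of all genes, and 0 had an unadjusted p below 0.05, beside 8.58%. Both contrasts use the same blank hearts. For all 7 genes the groups overlapped in every contrast, beside 0.48%, 0.594% and 0.179% of all genes whose groups did not overlap in CPM in PLCβ1b against blank, PLCβ1a against blank and PLCβ1b against PLCβ1a. In PLCβ1b against PLCβ1a hearts, edgeR called 0 of the 7 and 0 of all 12281 genes, a background of 0%, with 543 genes (4.42%) at an unadjusted p below 0.05 and none of the 7 among them. There the log2 fold changes ran from -0.077 for Mir208a to 0.082 for Myh7b, with Myh7 at -0.027 ± 0.34 (SE). The median change over the 7 genes was 0.0088 in PLCβ1b and 0.011 in PLCβ1a hearts, and over all genes tested it was -9e-04 and -0.0018. With so few called genes in the background, 0 of 7 does not set these genes apart from the rest. The intervals are therefore the more informative measure, narrow for the abundant genes and wide for Myh7, Myh7b and Mir208a.

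**Figure D3:**
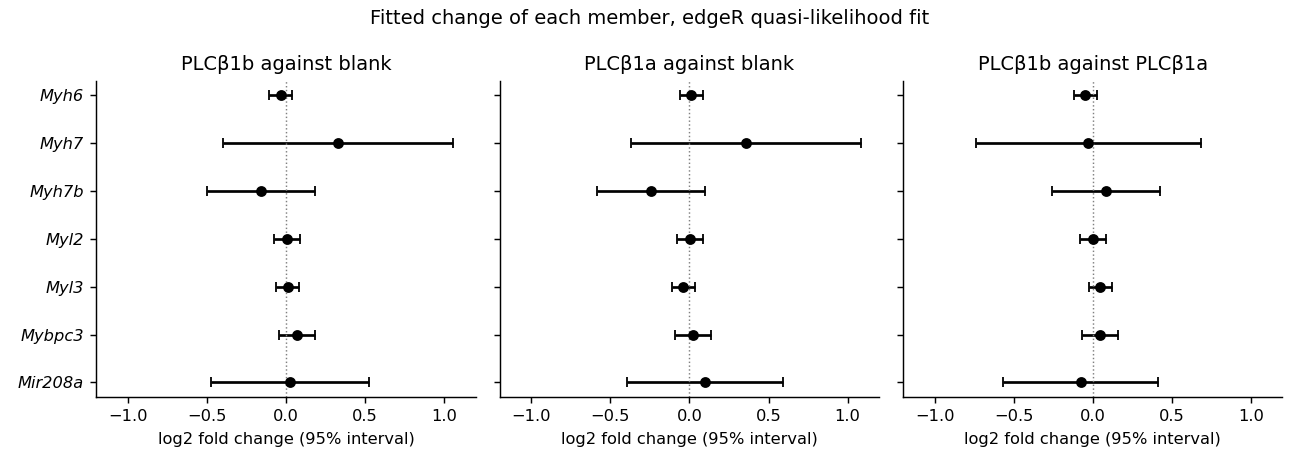
Fitted log2 fold change of each gene (point) with its 95% interval (bar) in the 3 contrasts, from edgeR's quasi-likelihood fit on 18 hearts. Every interval includes 0, those of Myh6, Myl2, Myl3 and Mybpc3 are short, and those of Myh7 are the widest, reaching from -0.40 to 1.054 in PLCβ1b against blank hearts.

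The second deposited table gives FPKM, in which fragments are scaled to exon length and to the depth of the library, and there Myh7 stood at another level. To set genes side by side, CPM were divided by exon length in kilobases. On that scale, over 18 hearts, Myl2 was highest (3683 ± 182, SD), followed by Myh6 (1381 ± 55.8), Myl3 (1206 ± 46.5) and Mybpc3 (308.6 ± 22.4). Each of these lay above the next in all 18 hearts with ranges that did not overlap. Myh7b (7.19 ± 1.44) and Myh7 (6.84 ± 2.82) came last, with overlapping ranges, Myh7b being the higher in 12 of 18 hearts. In FPKM the upper part of the order was the same, from Myl2 (5574 ± 301) over Myh6 (2164 ± 131) and Myl3 (1724 ± 118.5) to Mybpc3 (367 ± 28.9). Below them, however, Myh7 stood at 86.7 ± 8.49 FPKM and Myh7b at 6.67 ± 1.31, with Myh7 higher in all 18 hearts by 7.58 to 17.3 times. The coefficient of variation of Myh7 over 18 hearts was 9.79% in FPKM, below the 19.6% of Myh7b, whereas in CPM it was 41.15%.

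The ratio of the units shows where the tables part. CPM per kilobase divided by FPKM had a median of 0.849 over 12210 genes. It was 0.841 for Mybpc3, 1.08 for Myh7b, 0.703 for Myl3, 0.655 for Myl2 and 0.633 for Myh6. For Myh7 it was 0.0736, 11.5 times lower than the median of all genes, and only 31 genes of 12210, Myh7 included, were that low or lower. Its value also differed from heart to heart, from 0.0449 to 0.146, with a coefficient of variation of 37.4% that put it among the highest 72 genes. The median coefficient of variation was 5.20%, and the other 5 genes compared had 3.53 to 5.08%. Tested with limma on log2(FPKM + 0.1), the difference of Myh7 from blank hearts was -0.0074 for PLCβ1b and 0.092 for PLCβ1a, where the counts gave 0.33 and 0.36, and neither table called it. Set against the median gene, the level of Myh7 is therefore uncertain by a factor of about 11.5 between the tables. Its level relative to its copy Myh6 is uncertain too. The share of Myh7 in their sum was 4.16 to 13.4 times as high in FPKM as in counts (median 8.54).

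**Figure D4:**
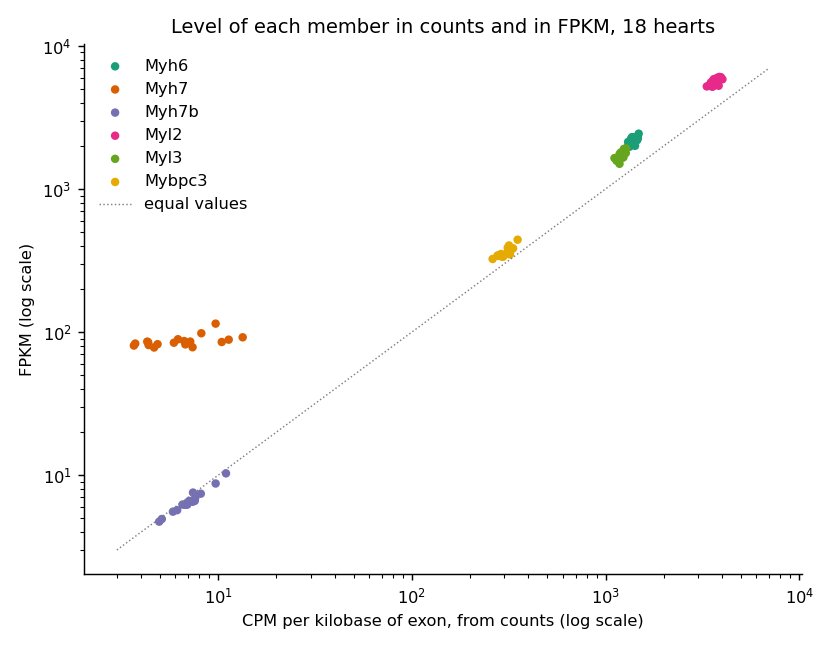
Level of 6 of the genes in each of 18 hearts, with CPM per kilobase of exon from the counts across and the deposited FPKM upward, both on log scales, and a dotted line at equal values. The points of 5 genes lie near the line, whereas those of Myh7 lie far above it and spread sideways, with 3.67 to 13.4 CPM per kilobase at 78.0 to 114.6 FPKM.

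The heavy chain ratio, the share of Myh7 in the sum of Myh6 and Myh7, was computed from each table. In counts per kilobase blank hearts had 0.415% ± 0.112 (SD, n = 6), PLCβ1a hearts 0.534% ± 0.209 and PLCβ1b hearts 0.539% ± 0.298. Its lowest and highest hearts were 0.308 and 0.549%, 0.266 and 0.860%, and 0.272 and 1.003% in the same order. The groups overlapped throughout. In an exact two-sided permutation test of 6 hearts against 6 (924 arrangements, smallest possible p 0.0022), PLCβ1b exceeded blank by 0.124 percentage points (p = 0.396), PLCβ1a exceeded blank by 0.119 points (p = 0.255), and PLCβ1b exceeded PLCβ1a by 0.0048 points (p = 0.970). Without PLCβ1b heart 6 the first difference was 0.031 points and without PLCβ1b heart 17 it was 0.073, and without PLCβ1a heart 21 the difference of PLCβ1a from blank was 0.054 points. In FPKM blank hearts had a share of 3.72% ± 0.148, PLCβ1a hearts 4.02% ± 0.695 and PLCβ1b hearts 3.84% ± 0.295. The same exact permutation tests gave differences of 0.121 (p = 0.370), 0.301 (p = 0.400) and -0.180 points (p = 0.742). Adjusted over the 6 tests, no p was below 0.601. The PLCβ1a mean in FPKM rested on heart 14, which stood at 5.41% while the other 5 lay between 3.51 and 3.99%, and without it the difference from blank was 0.024 points. The PLCβ1b difference in FPKM was 0.055 points without PLCβ1b heart 6, 0.061 without heart 17 and 0.192 without heart 4.

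The share in FPKM was 4.16 to 13.4 times the share in counts. Their difference, in contrast, was nearly the same in every heart. It lay between 3.13 and 3.48 percentage points in 17 hearts, with 4.73 points in PLCβ1a heart 14 as the exception. Group means of the difference were 3.31 ± 0.098 (SD, n = 6) for the blank vector, 3.49 ± 0.611 for PLCβ1a and 3.30 ± 0.123 points for PLCβ1b. Windows found in any other gene were also left out of the lengths, 928 in Myh6 and 1197 in Myh7, with the counts unchanged. Of those left out of Myh7, only 928 occur in Myh6. The count share was then 0.434% ± 0.117 for the blank vector, 0.559% ± 0.219 for PLCβ1a and 0.564% ± 0.311 for PLCβ1b. The size of that move was set by the lengths alone, so it cannot show how shared reads bear on the share. How each table treated read pairs that match both genes was not tested.

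Across the 18 hearts, log2 CPM and log2 FPKM of Myh7 were related with Pearson's r = 0.539 (permutation p = 0.015) and Spearman's rho = 0.573 (permutation p = 0.014). Both tables come from the same libraries, so an r near 1 would be the plain result of the same reads, and the p only sets the relation against none. Within the groups r was 0.387 (blank), 0.600 (PLCβ1a) and 0.822 (PLCβ1b), and it was 0.552 without PLCβ1b heart 6 and PLCβ1a heart 21, the hearts farthest from the median. Adjusted over the 6 genes compared, the permutation p was 0.015 for r and 0.014 for rho. Myh7b had r = 0.983 (rho = 0.961) and Mybpc3 r = 0.843 (rho = 0.703), whereas Myl3 (r = 0.700), Myl2 (r = 0.634) and Myh6 (r = 0.607) were closer to Myh7. Of these 5, Myh6 alone shares windows with another gene. The last 3 genes spanned only 1.14 to 1.204 times from lowest to highest heart in CPM, beside 3.65 times for Myh7. For Myh7 a heart's place thus depended on the unit, and CPM and FPKM also differ in library scaling. PLCβ1b heart 17 was 3rd in CPM and 9th in FPKM, and blank heart 26 was 6th and 17th. In the share of Myh7 in Myh6 plus Myh7, library scaling cancels. There PLCβ1b heart 17 lay above the median of 18 hearts in both, at 0.79% in counts (median 0.443%) and 4.14% in FPKM (median 3.74%). Blank heart 26 had 0.545% in counts and lay near the median in FPKM.

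Among the 7 genes, Myh7 went with Myl2 from heart to heart in CPM. The Pearson r of their log2 CPM over 18 hearts was 0.825 (rho = 0.823), the highest of the 21 pairs. Within the groups it was 0.582 (blank), 0.854 (PLCβ1a) and 0.930 (PLCβ1b), and 0.783 without PLCβ1b heart 6 and PLCβ1a heart 21. The 4 hearts with the most Myh7 were also the 4 with the most Myl2, at 2429 to 2540 CPM, and the 2 hearts with the least Myh7 had the least Myl2, at 2187 and 2110 CPM. In FPKM the order differed. There PLCβ1a heart 14, with the most Myh7 (114.6), had 5268 FPKM of Myl2, below the median of 5525 over 18 hearts. Blank heart 36, next in Myh7 at 98.2 FPKM, lay above that median at 5987. So did the hearts that followed in Myh7, PLCβ1b heart 6 (6045), PLCβ1a heart 9 (5783) and PLCβ1a heart 21 (6069). PLCβ1a heart 11, after these, lay below it at 5431. Only 3 of the 21 pairs had r above 0.5, the others being Myl2 with Mybpc3 (0.597) and Myl2 with Myh7b (0.553). Myh6 with Myh7 gave -0.26, and Mir208a with its host Myh6 gave 0.176 at these low counts. These are descriptions over hearts that share a scaling, and they carry no test. The summed CPM of 5 leukocyte marker genes had r = -0.77 with the CPM of Myh7, with 61.2 to 67.2 CPM in the 4 hearts with the most Myh7 and 84.5 and 91.3 CPM in the 2 with the least. By group that sum was 64.8 to 80.1 CPM (blank), 63.6 to 84.5 (PLCβ1a) and 61.2 to 91.3 (PLCβ1b), and its part in the spread of Myh7 was not tested. The summed cardiomyocyte markers had r of -0.40 with Myh7, the skeletal muscle markers 0.383, with heart 21 the only one above 1.01 CPM, and the erythrocyte markers, of which 4 of 5 had no count in any heart, -0.32. For atrial, fibroblast, endothelial and smooth muscle markers r was -0.16, -0.11, -0.20 and -0.072.

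**Figure D5:**
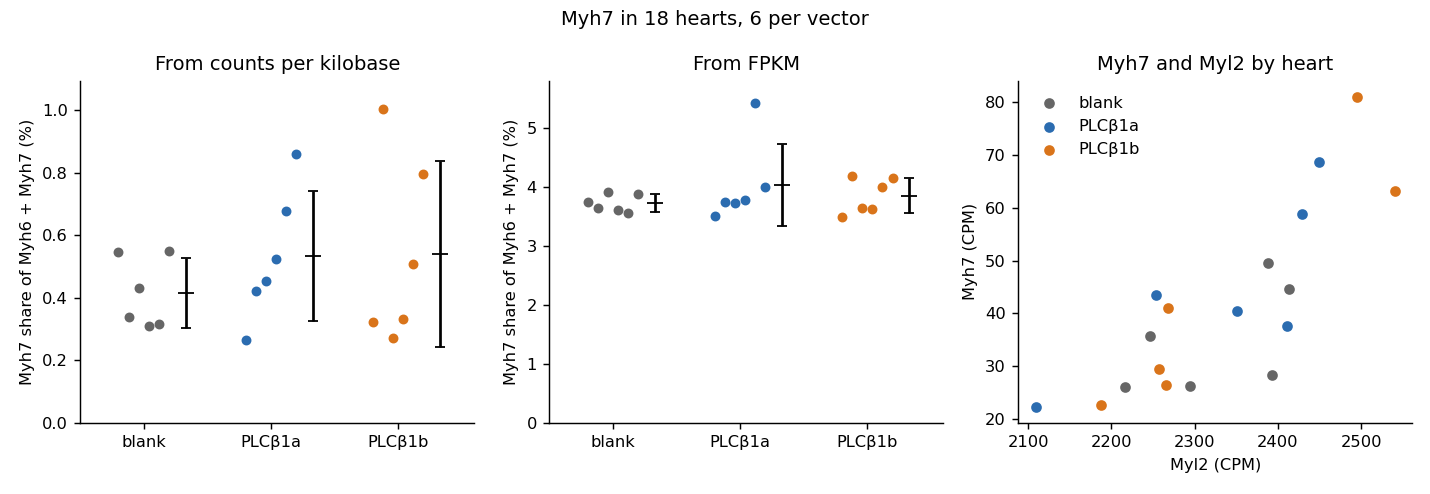
The share of Myh7 in Myh6 plus Myh7 in percent, from counts per kilobase (left) and from FPKM (middle), with 1 point per heart and mean ± SD per vector, and CPM of Myh7 against CPM of Myl2 (right, axes not starting at 0). The left axis ends near 1%, the middle axis ends above 5%, and the groups overlap in both. At right, hearts with more Myl2 in CPM tended to have more Myh7 in CPM.

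Of all 12280 other genes tested, the 5 most like Myh7 in log2 CPM over 18 hearts were Idh2 (r = 0.853), which encodes a mitochondrial isocitrate dehydrogenase, then Myl2, Acat1 (0.805), Nkiras1 (0.775) and Robo1 (0.766). Acat1 encodes a mitochondrial acetyl-CoA acetyltransferase. In log2 FPKM none of these 5 returned, and the 4 nearest genes were Rpl7a (0.757), Gm17769 (0.752), Atp5h (0.745) and Nlrp5-ps (0.709). Myl2 was most like Myh7, followed by Krt222 (0.801), Idh3b (0.794), Idh2 (0.786) and the cardiac troponin I gene Tnni3 (0.765). Myh6 was most like Myo18a (0.820), which encodes an unconventional myosin, and then Slc38a7 (0.767), Gigyf1 (0.761), Dph1 (0.750) and Dnase1l2 (0.745). For Myh7b the nearest were Ppp1r3c (0.895), Nup62 (0.867), Vegfa (0.855), 2310042D19Rik (0.845) and Aak1 (0.837).

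The proportions of the other sarcomere members were steady. Myl2 was 3.06 ± 0.156 (SD, n = 18) times Myl3 in CPM per kilobase and 3.24 ± 0.176 times in FPKM. The summed ventricular light chains were 3.51 ± 0.133 times the summed Myh6 and Myh7 with the blank vector, 3.46 ± 0.211 times with PLCβ1a and 3.61 ± 0.286 times with PLCβ1b in CPM per kilobase. Mybpc3 came to 21.7% ± 1.86 of the heavy chains with the blank vector, 21.8% ± 1.31 with PLCβ1a and 23.3% ± 2.12 with PLCβ1b. Each difference between vectors in the last pair of ratios was smaller than the larger SD of the groups compared.

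Around these genes stand other lists of the myosin system, in which edgeR called no gene in any of the 3 contrasts at an FDR below 0.1. Of 10 other heavy chains of conventional myosins, 4 were tested and 0 were called. The lowest p in edgeR was that of Myh14, a nonmuscle heavy chain, with a log2 fold change of 0.10 in PLCβ1b against blank hearts (unadjusted p = 0.0224). Of 10 other light chains 7 were tested and 0 called. There Myl9, the regulatory chain of smooth muscle, came lowest in the same contrast at 0.16 (unadjusted p = 0.0498). Of 10 genes of myosin-binding proteins and the M band 8 were tested and 0 called. Myom2, an M band protein gene, had the lowest p, again in PLCβ1b against blank hearts, at 0.33 (unadjusted p = 0.0146). Of 8 genes for light chain kinases and the myosin phosphatase 7 were tested and 0 called, and all 9 genes of myosin folding and turnover were tested with 0 called. The lowest p in the former was that of Ppp1cb, the catalytic subunit of the phosphatase, at -0.047 in PLCβ1b against PLCβ1a hearts (unadjusted p = 0.237). In the latter it was that of the ubiquitin ligase gene Trim55, at -0.11 in PLCβ1b against blank hearts (unadjusted p = 0.0443). DESeq2 called 0 genes of these lists as well. At an unadjusted p below 0.05 in edgeR, the 5 lists together had 4 genes in PLCβ1b against blank hearts, those named above. They had 1 in each of the other contrasts, which was Mybpc2, the fast skeletal form of the binding protein. These counts are out of 4, 7, 8, 7 and 9 genes tested in the 5 lists. Over all genes tested, the share below that p was 7.41% in PLCβ1b against blank, 8.58% in PLCβ1a against blank and 4.42% in PLCβ1b against PLCβ1a hearts. The median log2 fold changes of these 5 lists in PLCβ1b against blank hearts were 0.035, -0.018, 0.030, -0.016 and -0.026.

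Regulators known to act on the heavy chain genes include the thyroid hormone receptors, which raise Myh6 and lower Myh7, and MEF2, GATA and TEAD factors. Of 32 such genes 30 were tested, and 0 were called in any contrast in edgeR. Unadjusted p values below 0.05 in edgeR were found for 4 of the 30 in PLCβ1b against blank and 3 of the 30 in PLCβ1a against blank hearts. In PLCβ1b against PLCβ1a hearts they were found for 3 of the 30. Over all genes the shares were 7.41%, 8.58% and 4.42% in the same order. The lowest was that of Thra, the thyroid hormone receptor α gene, in PLCβ1b against blank hearts (log2 fold change 0.18 ± 0.060 (SE), unadjusted p = 0.00486, FDR 0.402 in edgeR). The other genes below 0.05 in that contrast were Rxrb (-0.17 ± 0.077 (SE), unadjusted p = 0.0342) and Srf (0.13 ± 0.059, unadjusted p = 0.0343). Thrb, the β receptor gene, was also among them (-0.14 ± 0.063, unadjusted p = 0.0359). The FDR of each of these was 0.641 in edgeR. The median over the list was -0.0032 in that contrast, beside -9e-04 over all genes.

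At the Myh7 end of the locus lies D830015G02Rik, listed in RefSeq as Mhrt, a cardiac noncoding RNA transcribed against Myh7. In the deposited annotation it is at chr14:54968787-54974349 on the plus strand, and 4 of its 5 exons overlap Myh7 exons over 463 bases. The counting kept strand, so its reads and those of Myh7 were counted apart. Its median was 31.7 CPM in the blank group (26.1 to 36.5), 32.3 in the PLCβ1a group (30.1 to 36.2) and 27.3 in the PLCβ1b group (25.9 to 33.4). The PLCβ1b hearts were the lowest as a group, overlapping both others. Its log2 fold change was -0.19 ± 0.070 (SE, unadjusted p = 0.0129, FDR 0.549 in edgeR) against blank and -0.21 ± 0.070 (unadjusted p = 0.00596, FDR 0.971 in edgeR) against PLCβ1a hearts, so it was not called. From heart to heart it went with Myh6 (r = 0.628, rho = 0.618) rather than with Myh7 (-0.15), within the groups at r of 0.490, 0.416 and 0.835 for Myh6. Without blank heart 36 and PLCβ1a heart 9, the farthest in Myh6, that r was 0.443. The other 2 noncoding genes of the loci, Mir208b and Mir499, did not pass the filter.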

How the data were processed

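RNA of 18 mouse hearts was freed of ribosomal RNA and sequenced as strand-specific pairs of 76 bases. The authors aligned reads to mm10 using TopHat, and the deposited raw counts per gene are from HTSeq in union mode. The submitters' processing notes list TopHat2 2.0.10, Bowtie2 and Cufflinks 2.1 without roles, and the program behind the deposited FPKM is not given in the sources used here.

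Counts were TMM-scaled and fitted for the 3 groups together with edgeR 4.0.16 (R 4.3.3), using filterByExpr (minimum count 10) and glmQLFit with robust shrinkage, with Benjamini-Hochberg adjustment over 12281 genes. Log2 CPM had a prior count of 2. Exon lengths were the union of exons in the deposited annotation. Shares were compared by exact permutation tests, and relations by 100000 permutations. Programs were tested on simulated data. Alternatives used DESeq2 1.42.0 and limma 3.58.1 on log2(FPKM + 0.1) or log2(FPKM + 1). Shared 76-base windows were sought in GENCODE transcripts. Python 3.11.15 with scipy 1.17.1 and matplotlib 3.10.9 made the tables and figures.

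The rule for the 7 genes used no measured value, but they and the lists were chosen with earlier results of these data known. All 7 genes are named, and from each list every called gene or else the gene with the lowest p. Beyond that rule, Mybpc2, Rxrb, Srf and Thrb are named. The genes most like a member were taken by Pearson r, 5 for each, of which 1 is not reported here. No library was left out. The fit without robust shrinkage and the lengths without shared windows were chosen after seeing the data. Each heart is a separate mouse, and the mouse numbers are not shared between groups.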

Additional observations from a re-analysis of the deposited data

Results flagged for a closer look

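In each group of 6 hearts, the gap between an extreme heart and its nearest neighbour was set against the range of the group, for 69 groups of values. By chance about 1 group in 20 would pass this limit, and 7 did. Myh7 stood apart in PLCβ1a heart 14 in FPKM, at 114.6 against 89.2 in the next heart, and its share of Myh6 plus Myh7 in FPKM did so in the same heart, at 5.41% against 3.99%. In CPM that heart was 2nd among the PLCβ1a hearts, at 58.8. Myh7b was low in PLCβ1a heart 7, at 30.6 CPM (next 41.4) and 4.74 FPKM (next 6.22), and in PLCβ1b heart 8, at 31.6 CPM (next 42.7). The same 2 hearts had the least Myh7 and the least Myl2 in CPM. Myh6 was high in blank heart 36, at 9016 CPM (next 8471). The summed skeletal muscle markers were high in PLCβ1a heart 21, at 17.96 CPM (next 1.01), the heart with the second highest Myh7 in CPM.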

How the results depend on the processing

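None of the 7 genes was called in any contrast under the 27 alternatives, 18 of which left out 1 heart (Mir208a was left out of the 2 on FPKM, and DESeq2 gave it no adjusted p in PLCβ1a against blank hearts), and neither was any gene of the 7 other lists. The lowest FDR of any member was 0.605, for Myh7b in PLCβ1a against blank hearts without robust shrinkage in edgeR. Over all genes, DESeq2 called 24 in PLCβ1b and 33 in PLCβ1a against blank hearts, where edgeR called 12 and 17. No p of the Myh7 share fell below 0.05 in any alternative (exact permutation), nor did the relation of Myh7 counts with FPKM lose its p below 0.05 (r from 0.51 to 0.589).

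Some directions turned. On log2 FPKM with limma and 0.1 or 1 added, PLCβ1b against blank gave -0.0074 and -0.0073 for Myh7 where counts gave 0.33, -0.011 in both for Myl2 and -0.021 in both for Myl3, and PLCβ1a against blank gave -0.0099 for Myh6 and -0.019 for Myl2. The log2 ratio of Myh7 to Myh6 in counts gave -0.066 in PLCβ1b against PLCβ1a hearts. The cause was not tested. Leaving out single hearts, the signs of these log2 fold changes also turned. In PLCβ1b against blank, Myl2 ran from -0.019 to 0.025, Myl3 from -0.0075 to 0.024 and Mir208a from -0.17 to 0.16. In PLCβ1a against blank, Myh6 ran from -0.0029 to 0.031, Myl2 from -0.0092 to 0.033, Mybpc3 from -0.016 to 0.050 and Mir208a from -0.021 to 0.21. In PLCβ1b against PLCβ1a, Myh7 ran from -0.30 to 0.14, Myl2 from -0.027 to 0.019 and Mir208a from -0.27 to 0.058, and the Myh7 share from -0.088 to 0.070 points in counts and from -0.28 to 0.097 points in FPKM. No paired analysis was possible because the groups share no mouse number. The low counts of Mir208a, and the disagreement of the tables for Myh7, limit what these hearts can show of both.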
